A study of Homo sapiens with 18 samples.

Results

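Protein phosphatase 2A (PP2A) is a serine/threonine phosphatase built from a scaffold subunit, a catalytic subunit and 1 exchangeable regulatory B subunit, and the 8 genes described here encode its core and its B55 family of B subunits. They are the B55 genes PPP2R2A, PPP2R2B, PPP2R2C and PPP2R2D, the catalytic genes PPP2CA and PPP2CB, and the scaffold genes PPP2R1A and PPP2R1B. They were chosen by gene symbol from the 57773 genes of the count table, and each symbol matched 1 entry. The libraries came from A549 and H1299 cells, both human non-small cell lung cancer (NSCLC) lines, and were made from poly(A) RNA for bulk RNA-Seq. In each line the groups were a control shRNA (shcon) and 2 shRNAs against PPP2R2A (shPPP2R2A-1 and shPPP2R2A-2), each group having 3 libraries, which makes 18. Both lines were grown in the same medium, and the labels name no drug. A hairpin lowers the mRNA of a gene without removing the gene, and the groups are named by hairpin and line with no mention of single-cell clones.

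The B subunit decides which substrates the PP2A core acts on. B55 forms of PP2A remove phosphates placed by cyclin-dependent kinases and are held in check during mitosis by the MASTL kinase, through its substrates ENSA and ARPP19. PPP2R2A (B55α) and PPP2R2D (B55δ) are widely expressed, while PPP2R2B (B55β) and PPP2R2C (B55γ) are best known from the brain. PPP2CA and PPP2CB encode nearly identical catalytic proteins, and PPP2R1A is the more abundant of the scaffold genes in most tissues. The question followed here was how the levels of the other subunits stood when PPP2R2A was lowered.

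Library totals ranged from 35.7 M to 69.3 M counts. Levels are given as CPM, counts scaled to the library size, on 1 trimmed-mean (TMM) scale over the 18 libraries, and tests are edgeR's quasi-likelihood tests within a line, with p adjusted by the Benjamini-Hochberg method over all genes tested. A gene is said to be called where the adjusted p is under 0.05. The epithelial keratins KRT8 and KRT18 were present in both lines, but CDH1 and EPCAM were nearly absent from H1299 (0.0131 and 0.129 CPM in shcon, against 66.6 and 6.87 CPM in A549). CDKN2A, which A549 has lost, was at 0 counts in the A549 libraries except for 57 counts (1.27 CPM) in 1 library under shPPP2R2A-2, and at 41.9 CPM in H1299 shcon. Of 11 markers of leukocytes, endothelial cells, fibroblasts and alveolar type 2 cells, 10 were in the table, and their summed level was 14.6 to 41.1 CPM in A549 and 0.851 to 7.11 CPM in H1299. In A549 shcon this sum was mostly CD14 (10.4 CPM) and COL1A1 (6.57 CPM), while the leukocyte markers PTPRC and CD3E were at 0.0127 and 0 CPM.

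PPP2R2A was lowered by both hairpins in both lines. In A549 it stood at 87.9, 48.5 and 90.0 CPM in the shcon libraries, 9.43, 11.0 and 7.50 CPM under shPPP2R2A-1, and 10.9, 13.3 and 15.8 CPM under shPPP2R2A-2. In H1299 it stood at 101, 72.9 and 85.7 CPM in shcon, 7.10, 9.67 and 6.53 CPM under shPPP2R2A-1, and 17.5, 17.3 and 14.0 CPM under shPPP2R2A-2. Every KD library lay below every shcon library of its line, and the lowest control value was that of A549 shcon replicate 2. The A549 means were 75.5 ± 23.4 CPM (SD, n = 3) in shcon, 9.32 ± 1.77 CPM under shPPP2R2A-1 and 13.3 ± 2.41 CPM under shPPP2R2A-2, so that 12.4% and 17.7% of the control level remained. The H1299 means were 86.4 ± 13.8 CPM in shcon, 7.77 ± 1.67 CPM under shPPP2R2A-1 and 16.3 ± 1.98 CPM under shPPP2R2A-2, which left 8.99% and 18.8%. In bulk RNA, fewer cells holding a transcript and less of it per cell cannot be told apart. 

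Against shcon, PPP2R2A changed by a log2 of -2.98 (SE 0.27) and -2.47 (SE 0.26) in A549, shPPP2R2A-1 first, and -3.52 (SE 0.22) and -2.45 (SE 0.21) in H1299. The adjusted p from edgeR was 0.00025 and 3e-04 in A549 and 0.00014 and 0.0017 in H1299. The hairpins differed in strength in H1299, where PPP2R2A was 2.11-fold higher under shPPP2R2A-2 than under shPPP2R2A-1 (95% interval 1.54 to 2.90, edgeR adjusted p = 0.0073). In A549 the same difference was 1.42-fold (0.975 to 2.08, edgeR adjusted p = 0.18) and was not called. Between the lines, PPP2R2A in shcon differed by a log2 of -0.26 (A549 against H1299, edgeR adjusted p = 0.36), less than the spread between libraries. In the order of the 6 group means, the lowest A549 control stood clear of the highest KD library, and the ranges of the 4 KD groups overlapped from neighbour to neighbour.

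**Figure D1:**
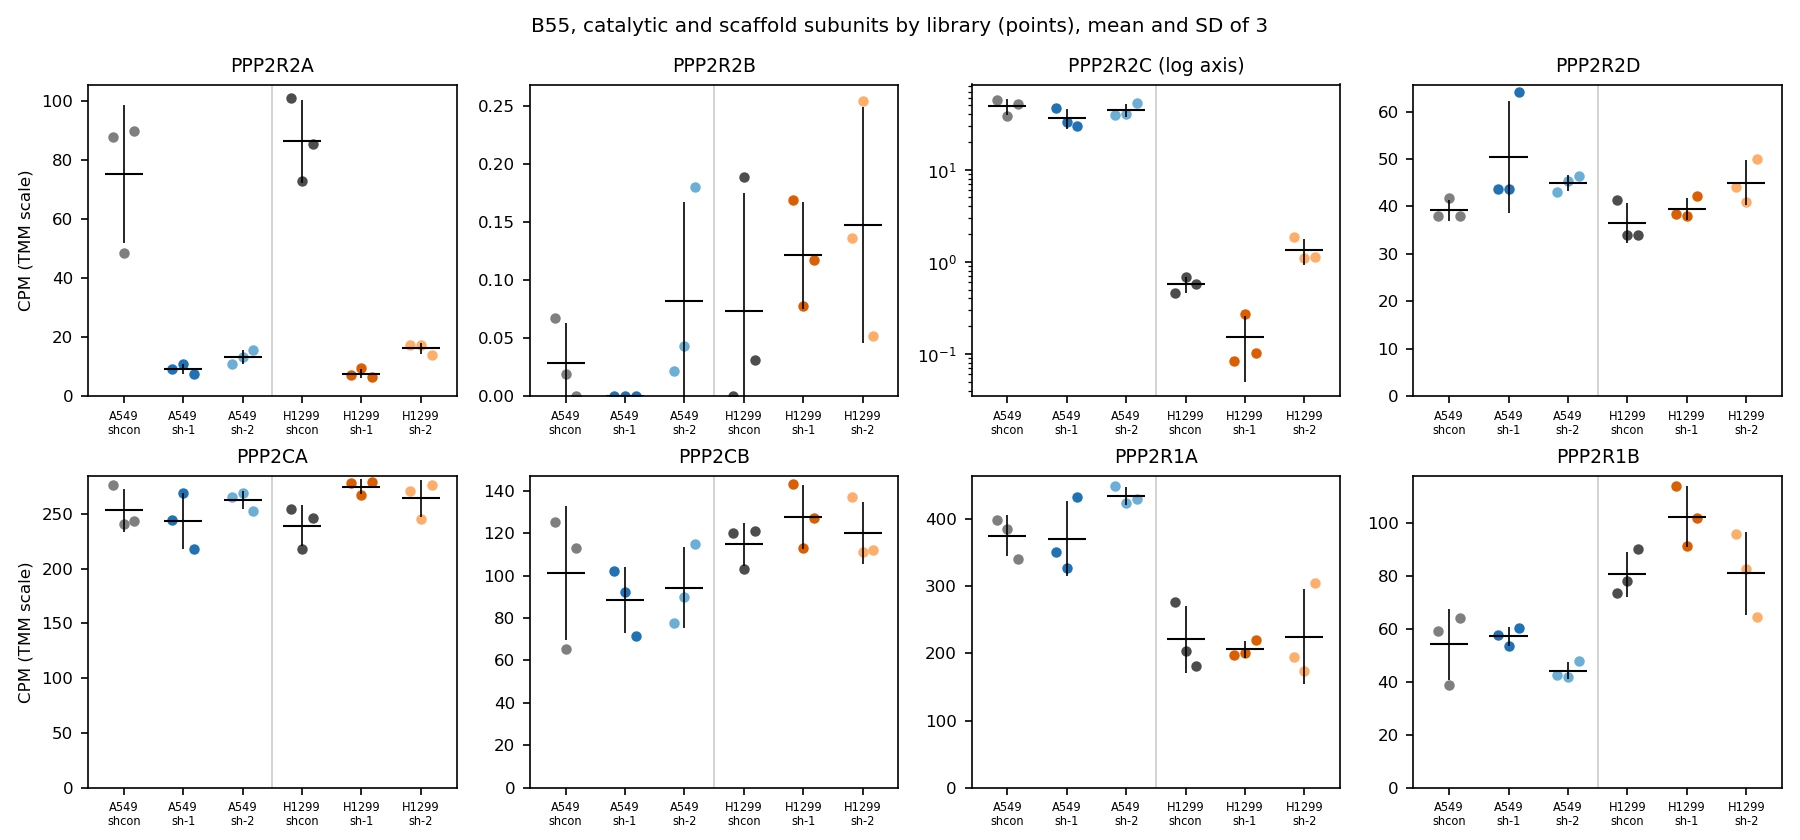
Level of each of the 8 genes in every library, in CPM on the TMM scale (vertical axes start at 0 except for PPP2R2C, which has a log axis), by line and hairpin (sh-1 and sh-2 are shPPP2R2A-1 and shPPP2R2A-2). Points are libraries, horizontal bars the mean of 3 and vertical bars the SD, and PPP2R2A falls from 75.5 and 86.4 CPM to between 7.77 and 16.3 CPM while the other panels show no such fall shared by both lines.

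Of the other 7 genes, none was called against shcon with either hairpin in either line by edgeR. Only 6 of the 7 had enough counts to be tested, since PPP2R2B was filtered out. Among all genes tested, 13.7% were called under shPPP2R2A-1 and 20.5% under shPPP2R2A-2 in A549, and 2.74% and 3.09% in H1299, so 0 of 6 is a small sample of a background that is itself low in H1299. At an unadjusted p under 0.05 the count was 0 of 6 for both hairpins in A549 and 1 of 6 for each hairpin in H1299, and in both cases the gene was PPP2R2C. DESeq2 called 0 of 6 in A549 with either hairpin and in H1299 under shPPP2R2A-2, and called PPP2R2C lower in H1299 under shPPP2R2A-1. The median log2 fold change of the 6 genes was -0.01 and 0.00 in A549 and 0.08 and 0.07 in H1299, beside medians of -0.02, -0.01, -0.04 and -0.01 over all genes tested. Counting groups whose 3 libraries did not overlap the 3 shcon libraries, 1 and 2 of the 6 genes were apart from shcon in A549 under shPPP2R2A-1 and shPPP2R2A-2, where 31.9% and 39.5% of all genes were. In H1299 the counts were 3 and 1 of 6, beside 30.6% and 20.6% of all genes.

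**Figure D2:**
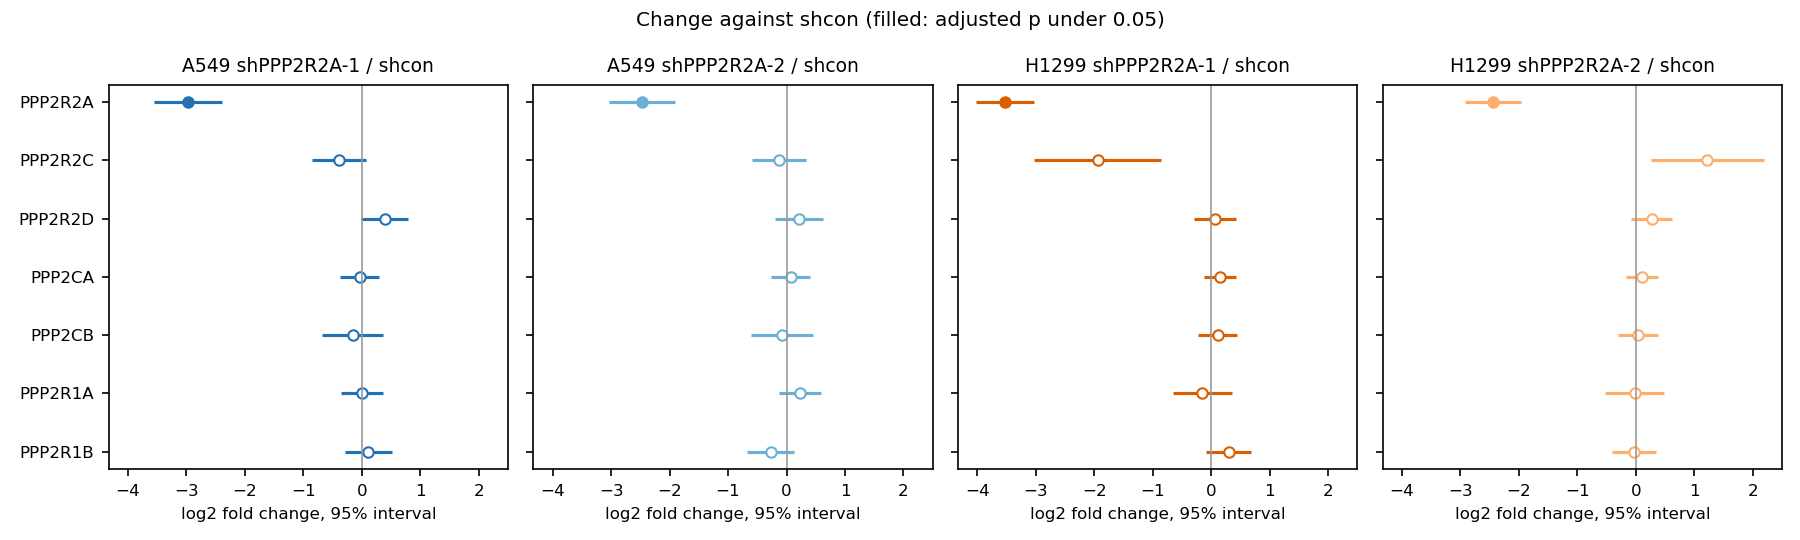
Log2 fold change against shcon of the same line for the 7 genes tested, with its 95% interval from edgeR, for each hairpin and line. Filled points have an adjusted p under 0.05, which holds for PPP2R2A in each of the 4 panels and for no other gene, and the widest intervals are those of PPP2R2C in H1299.

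PPP2R2D, the other widely expressed B55 gene, stood slightly higher in KD cells without passing the test. In A549 it stood at 38.0, 41.7 and 37.9 CPM in shcon, 43.7, 43.6 and 64.1 CPM under shPPP2R2A-1 and 43.1, 45.4 and 46.4 CPM under shPPP2R2A-2. All 6 KD libraries lay above the 3 shcon libraries, and replicate 3 of shPPP2R2A-1 stood well above the other libraries. In H1299 it stood at 41.3, 34.0 and 34.0 CPM in shcon, 38.5, 37.9 and 42.2 CPM under shPPP2R2A-1 and 44.1, 40.9 and 50.1 CPM under shPPP2R2A-2, and both KD groups overlapped shcon. The fold change was 1.31 (95% interval 0.988 to 1.73) and 1.16 (0.878 to 1.53) in A549, with edgeR adjusted p = 0.18 and 0.44, and 1.05 (0.820 to 1.33) and 1.20 (0.943 to 1.54) in H1299, with edgeR adjusted p = 0.86 and 0.41. These intervals leave room for a rise of up to 1.73-fold and do not reach a doubling. Without replicate 3 of shPPP2R2A-1, the log2 change in A549 was 0.18 in place of 0.39 (edgeR adjusted p = 0.54). In that library the summed markers of other cell types were also the highest of the series (41.1 CPM), and most of that sum was COL1A1 (33.8 CPM). A549 shPPP2R2A-2 replicate 1 had a sum of 39.9 CPM with PPP2R2D at 43.1 CPM. The part of these markers in the PPP2R2D level was not tested.

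PPP2R2C separated the lines more than any other of the 7 genes tested. In A549 it stood at 57.0, 37.7 and 51.6 CPM in shcon, 46.5, 32.9 and 30.0 CPM under shPPP2R2A-1 and 39.1, 40.5 and 52.3 CPM under shPPP2R2A-2. The 3 groups overlapped, and the log2 fold change was -0.39 (edgeR adjusted p = 0.24) and -0.13 (edgeR adjusted p = 0.71). In H1299 it was near the floor of detection: 23, 36 and 36 counts per library in shcon, 4, 14 and 7 under shPPP2R2A-1, and 109, 65 and 43 under shPPP2R2A-2. These are 0.454, 0.679 and 0.571 CPM, then 0.0843, 0.271 and 0.102 CPM, then 1.85, 1.10 and 1.12 CPM, and none of the 3 groups overlaps another. With shcon, PPP2R2C was 82.0-fold higher in A549 than in H1299 (95% interval 49.8 to 135, edgeR adjusted p = 3.9e-11).

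In H1299 PPP2R2C stood on opposite sides of shcon under the hairpins. The log2 fold change was -1.94 under shPPP2R2A-1 (SE 0.49, edgeR adjusted p = 0.065) and 1.22 under shPPP2R2A-2 (SE 0.44, edgeR adjusted p = 0.16), neither of them called. The direct comparison was called, with PPP2R2C 8.95-fold higher under shPPP2R2A-2 than under shPPP2R2A-1 (95% interval 4.21 to 19.0, edgeR adjusted p = 0.0029). PPP2R2A itself was higher under shPPP2R2A-2, so 2 of the 7 genes tested were called between the hairpins in H1299, where 16.2% of all genes were. In A549, 0 of 7 were called between the hairpins by edgeR, with 0 by DESeq2 and 0 at an unadjusted p under 0.05, while 17.5% of all genes were called. The call against shcon under shPPP2R2A-1 depended on the fit: it was reached with DESeq2 (adjusted p = 0.0054), with no filter on low counts (0.012), with all 18 libraries in 1 edgeR fit (0.013), and without shPPP2R2A-1 replicate 2 (log2 -2.62, edgeR adjusted p = 0.044) or shPPP2R2A-2 replicate 3 (log2 -1.91, edgeR adjusted p = 0.047).

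PPP2R2B was at or near 0. It had 0 to 15 counts per library, and the highest level was 0.254 CPM, in H1299 under shPPP2R2A-2. The 3 A549 libraries under shPPP2R2A-1 had 0 counts each, and a count of 0 over these libraries together allows a level of up to 0.0227 CPM (3 counts). The groups overlapped in every comparison in which both had counts, and no fold change was computed at this depth.

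The regulatory sequence of PPP2R2C and PPP2R2D is shown because these paralogs share the B55 fold but only PPP2R2C was called between the lines. In shcon (A549 against H1299) PPP2R2D was at 1.03-fold (95% interval 0.810 to 1.32) and PPP2R2C was 82.0-fold apart. Each stretch holds the 250 bases before an annotated start in RefSeq (GRCh38.p14), with CpG dinucleotides in capitals. PPP2R2C has 5 annotated starts in that table, and the one shown has the most CpG dinucleotides.
PPP2R2C, chr4:6563800-6564049, minus strand: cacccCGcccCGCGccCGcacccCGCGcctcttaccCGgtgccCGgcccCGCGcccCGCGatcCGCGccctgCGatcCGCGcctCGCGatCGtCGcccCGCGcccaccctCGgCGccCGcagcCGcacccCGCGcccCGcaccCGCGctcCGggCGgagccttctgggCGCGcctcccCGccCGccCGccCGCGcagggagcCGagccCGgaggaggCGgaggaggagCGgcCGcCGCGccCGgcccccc
PPP2R2D, chr10:131900758-131901007, plus strand: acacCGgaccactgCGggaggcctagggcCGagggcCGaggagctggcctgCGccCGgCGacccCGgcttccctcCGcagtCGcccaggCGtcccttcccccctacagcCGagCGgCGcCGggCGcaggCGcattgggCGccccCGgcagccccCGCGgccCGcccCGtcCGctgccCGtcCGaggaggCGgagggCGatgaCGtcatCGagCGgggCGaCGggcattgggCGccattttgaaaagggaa
The PPP2R2C stretch holds 49 CpG dinucleotides and is 86.0% G and C, and 0.205% of the 35116 promoters in the table hold as many or more in the same length. The other 4 PPP2R2C starts hold 1 to 27. The PPP2R2D stretch holds 34 CpG dinucleotides with 76.0% G and C, a number that 6.84% of promoters reach. CG reads the same on both strands, so 1 search covers both, and the count is a description of the letters only. Counts per gene do not show which start was used, and no methylation or binding was measured in these libraries.

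Set per kilobase of exon, PPP2R2A made up the largest share of B55 transcripts in control cells of both lines. Lengths are the union of annotated exons in GENCODE v29, whose build (GRCh38) differs from that of the counts (hg19), so levels compared between genes are approximate. In A549 shcon the levels were 9.59 ± 2.97 CPM per kilobase for PPP2R2A, 5.30 ± 1.08 for PPP2R2C, 5.05 ± 0.276 for PPP2R2D and 0.00218 ± 0.00262 for PPP2R2B (SD, n = 3). In H1299 shcon they were 11.0 ± 1.76 for PPP2R2A, 4.70 ± 0.542 for PPP2R2D, 0.0618 ± 0.0123 for PPP2R2C and 0.00556 ± 0.00765 for PPP2R2B. A549 thus had 3 measurable B55 genes and H1299 had PPP2R2A and PPP2R2D with a trace of PPP2R2C. The share of PPP2R2A was 47.2% ± 6.84 in A549 shcon and 69.6% ± 1.90 in H1299 shcon, and their ranges (39.4% to 52.1% and 67.5% to 71.0%) did not overlap.

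**Figure D3:**
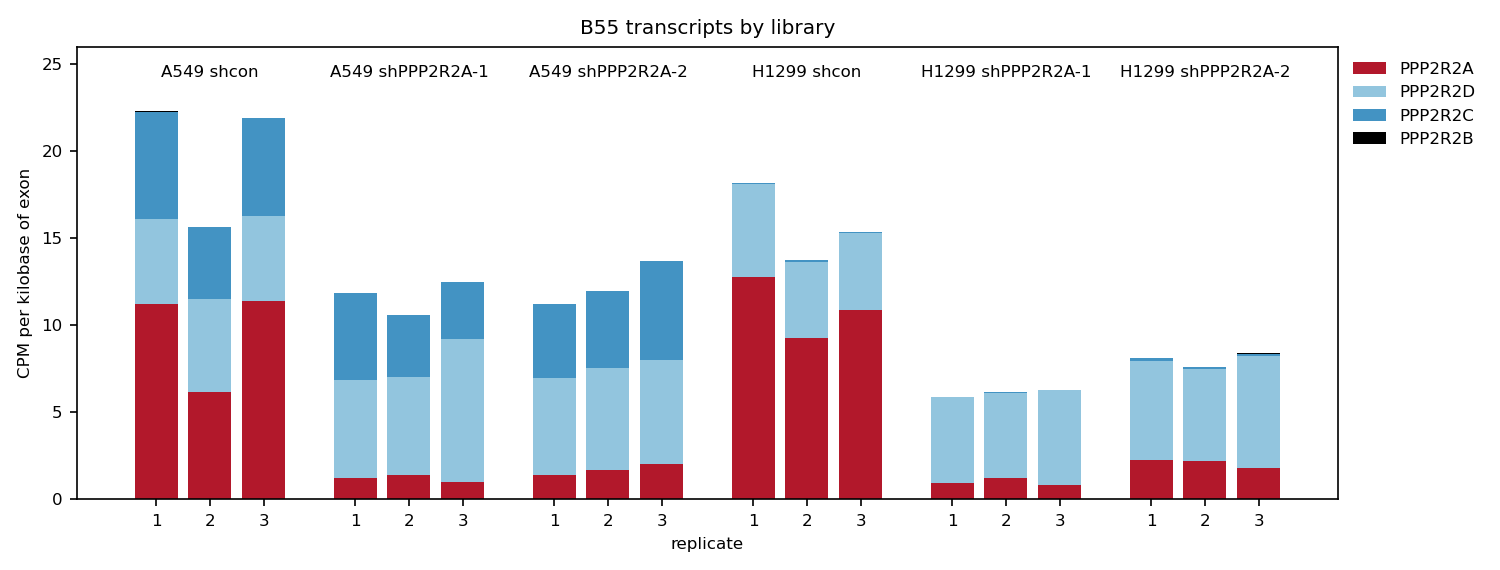
Summed level of the 4 B55 genes in each library, in CPM per kilobase of exon, stacked by gene and ordered by group and replicate. The sum falls from 20.0 to 11.7 and 12.3 in A549 and from 15.8 to 6.11 and 8.03 in H1299 (group means). The fall lies in the PPP2R2A part of the bars, and the other B55 genes together are no lower on average.

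The loss of PPP2R2A transcripts was not made up by the other B55 genes at the RNA level. In A549 PPP2R2A fell by 8.41 CPM per kilobase (SE 1.72) under shPPP2R2A-1 and fell by 7.90 (SE 1.73) under shPPP2R2A-2, while the other 3 B55 genes together changed by 0.111 (SE 0.828) and 0.227 (SE 0.738). In H1299 it fell by 10.0 (SE 1.02) and fell by 8.92 (SE 1.03), while the others changed by 0.356 (SE 0.349) and 1.20 (SE 0.459). The B55 sum was left at 58.4% and 61.5% of shcon in A549 and at 38.8% and 51.0% in H1299. The difference in mean PPP2R2D, which did not pass the test, equalled 17.3% and 9.41% of the PPP2R2A loss in A549 and 3.98% and 12.4% in H1299. These percentages moved with single libraries: without A549 shPPP2R2A-1 replicate 3 the 17.3% became 6.92%, and in H1299 under shPPP2R2A-1 the 3.98% became 7.81%, 2.22% and 2.40% when shcon replicate 1, 2 or 3 was left out and 2.26% when replicate 3 of shPPP2R2A-1 was. Among the B55 genes in KD cells PPP2R2D had the largest mean share per kilobase of exon, at 55.6% ± 9.66 and 47.4% ± 3.26 of the sum in A549 and 83.4% ± 3.62 and 72.2% ± 4.42 in H1299, where shPPP2R2A-1 is given first. With the longest coding transcript as the length, chosen after seeing the data, the PPP2R2A share in shcon was 49.7% and 77.0%, and the B55 sum was left at 52.9% and 58.0% in A549 and at 31.3% and 43.4% in H1299. With that length PPP2R2C had the larger mean share in A549 KD cells, at 44.2% ± 8.64 and 48.7% ± 2.39 against 43.9% ± 9.83 and 35.9% ± 2.97 for PPP2R2D, so the order of these genes in A549 depends on the length, while in H1299 PPP2R2D remained the largest (77.4% and 63.6%).

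Neither catalytic gene was called against shcon. PPP2CA stood at 276, 241 and 243 CPM in A549 shcon, 244, 269 and 218 CPM under shPPP2R2A-1 and 265, 269 and 253 CPM under shPPP2R2A-2. In H1299 it stood at 254, 218 and 246 CPM in shcon, 278, 267 and 279 CPM under shPPP2R2A-1 and 271, 245 and 276 CPM under shPPP2R2A-2. The H1299 libraries under shPPP2R2A-1 all lay above shcon, and the other KD groups overlapped it. The fold change was 0.976 (95% interval 0.776 to 1.23) and 1.05 (0.833 to 1.32) in A549 and 1.11 (0.914 to 1.35) and 1.08 (0.887 to 1.31) in H1299, with edgeR adjusted p between 0.55 and 0.90. PPP2CA was the steadiest of the 8 genes, with group means from 239 to 275 CPM.

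PPP2CB stood at 125, 65.4 and 113 CPM in A549 shcon, 102, 92.4 and 71.6 CPM under shPPP2R2A-1 and 77.6, 89.9 and 115 CPM under shPPP2R2A-2. In H1299 it stood at 120, 103 and 121 CPM in shcon, 143, 113 and 127 CPM under shPPP2R2A-1 and 137, 111 and 112 CPM under shPPP2R2A-2. Every KD group overlapped its shcon group, and A549 shcon replicate 2 was the lowest library, and it was also the lowest of the A549 controls for PPP2R2A, PPP2R2C and PPP2R1B. The fold change was 0.896 (95% interval 0.624 to 1.29) and 0.949 (0.661 to 1.36) in A549 and 1.08 (0.852 to 1.36) and 1.03 (0.811 to 1.30) in H1299, with edgeR adjusted p between 0.70 and 0.94. PPP2CB made up 32.8% ± 6.42 of the catalytic sum per kilobase in A549 shcon and 37.5% ± 0.536 in H1299 shcon, and 30.9% to 36.7% as the mean of each KD group. Its share depended on the length used: with the longest coding transcript it was 47.2% and 52.6% in shcon, so that the order of PPP2CA and PPP2CB per length is not settled by these counts.

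The scaffold genes stood apart between the lines in opposite directions and were not called against shcon. The PPP2R1A call was lost in a block fit that compares the lines at replicate 1 (below). PPP2R1A stood at 399, 385 and 341 CPM in A549 shcon, 351, 327 and 433 CPM under shPPP2R2A-1 and 449, 424 and 430 CPM under shPPP2R2A-2. In H1299 it stood at 277, 203 and 182 CPM in shcon, 198, 200 and 220 CPM under shPPP2R2A-1 and 195, 174 and 305 CPM under shPPP2R2A-2. The A549 libraries under shPPP2R2A-2 all lay above shcon, and 1 library each of H1299 shcon (replicate 1) and shPPP2R2A-2 (replicate 3) stood well above the rest of that line. The fold change was 1.00 (95% interval 0.782 to 1.29) and 1.17 (0.915 to 1.50) in A549 and 0.898 (0.633 to 1.28) and 0.990 (0.697 to 1.41) in H1299, with edgeR adjusted p between 0.35 and 0.99.

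PPP2R1B, the second scaffold gene, stood at 59.3, 39.0 and 64.2 CPM in A549 shcon, 57.6, 53.5 and 60.4 CPM under shPPP2R2A-1 and 42.7, 42.0 and 47.9 CPM under shPPP2R2A-2. In H1299 it stood at 73.6, 78.3 and 90.1 CPM in shcon, 114, 91.2 and 102 CPM under shPPP2R2A-1 and 95.8, 82.8 and 64.6 CPM under shPPP2R2A-2. The H1299 libraries under shPPP2R2A-1 all lay above shcon, by a narrow margin, and the other KD groups overlapped it. The fold change was 1.08 (95% interval 0.815 to 1.42) and 0.830 (0.628 to 1.10) in A549 and 1.23 (0.947 to 1.60) and 0.982 (0.756 to 1.28) in H1299, with edgeR adjusted p between 0.33 and 0.96. Part of the PPP2R1B gene lies opposite SIK2, a kinase gene with 1185 to 3860 counts per library. The libraries kept strand, but whether the counting used it is not given in the sources used here.

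Between the lines with shcon, 3 of the 7 genes tested were called, beside 56.0% of all genes. PPP2R2C (above) and PPP2R1A were higher in A549, and PPP2R1B was lower. PPP2R1A was 1.63-fold higher (95% interval 1.21 to 2.19, edgeR adjusted p = 0.0065), and each A549 library lay above each H1299 library of the same hairpin. With the replicate number as a block within each line it was not called (log2 0.65, edgeR adjusted p = 0.071). That fit compares the lines at the level of replicate 1, not over the replicates. H1299 shcon replicate 1 was the highest of its group for PPP2R1A (277 CPM, against 203 and 182 CPM). A549 shcon replicate 1 was also the highest of its group (399 CPM, against 385 and 341 CPM). The block fit called 8095 genes between the lines, against 10549 without the block. Why the PPP2R1A call was lost was not tested. PPP2R1B was 0.644-fold the H1299 level (0.496 to 0.836, edgeR adjusted p = 0.0057). PPP2R1B made up 13.8% ± 3.59 of the scaffold sum per kilobase in A549 shcon and 29.3% ± 6.32 in H1299 shcon, and these shares did not overlap. The summed scaffold level was 58.4 ± 3.64 CPM per kilobase in A549 shcon and 41.7 ± 5.66 in H1299 shcon, while the summed catalytic level was 67.2 ± 9.70 and 67.7 ± 5.51.

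**Figure D4:**
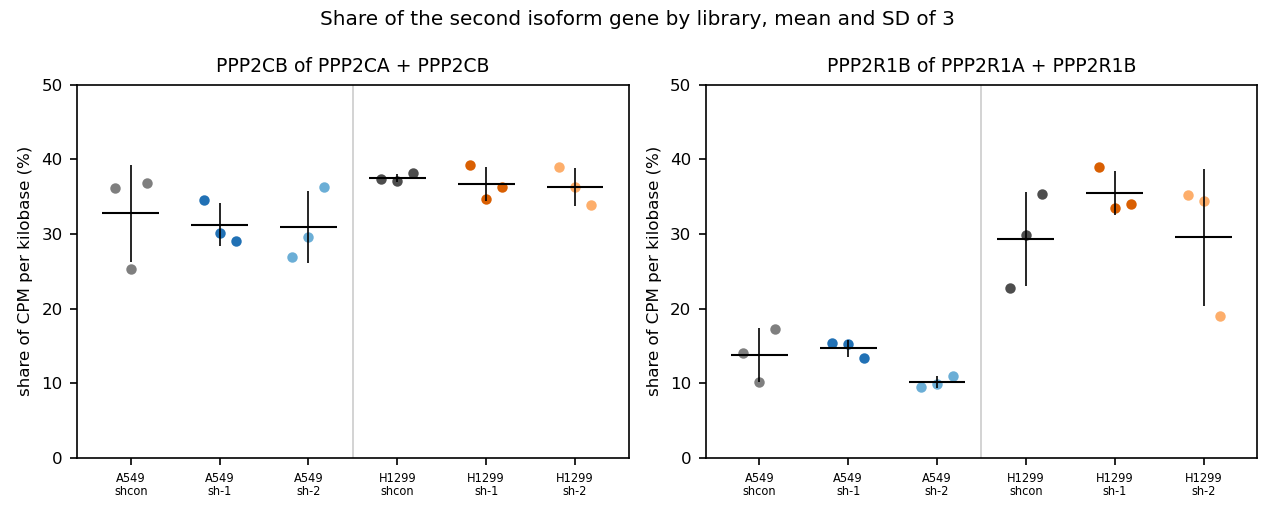
Share of PPP2CB in the catalytic sum and of PPP2R1B in the scaffold sum, in percent of CPM per kilobase of exon, by line and hairpin (sh-1 and sh-2 are shPPP2R2A-1 and shPPP2R2A-2). Points are libraries, horizontal bars the mean of 3 and vertical bars the SD, and the mean PPP2R1B share lies between 10.1% and 14.7% in A549 and between 29.3% and 35.5% in H1299.

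Whether a response differed between the lines was tested as an interaction, and 0 of the 7 genes tested were called for either hairpin by edgeR, beside 1.09% of all genes for shPPP2R2A-1 and 0.643% for shPPP2R2A-2. At an unadjusted p under 0.05 the count was 1 for each hairpin, and DESeq2 called 1 for each, the gene again being PPP2R2C. Its response to shPPP2R2A-1 was higher in A549 than in H1299 by a log2 of 1.51 (SE 0.47, edgeR adjusted p = 0.14, DESeq2 adjusted p = 0.038), and its response to shPPP2R2A-2 was lower by a log2 of -1.43 (SE 0.41, edgeR adjusted p = 0.11, DESeq2 adjusted p = 0.033). For PPP2R2A the interaction was 0.50 (SE 0.34) and -0.10 (SE 0.33), with edgeR adjusted p = 0.51 and 0.96.

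Around the core, other genes of the PP2A system were read from 2 lists, of 11 further B subunits and 15 regulators, all of which were tested. Among the B subunits, which replace B55 in other PP2A forms, 0 were higher and 1 was lower in A549 under shPPP2R2A-1, and 1 was higher and 3 were lower under shPPP2R2A-2. In H1299, 0 were higher and 1 was lower under shPPP2R2A-1, and 0 were called by edgeR under shPPP2R2A-2. Among the regulators, 2 were higher and 4 lower in A549 under shPPP2R2A-1, and 1 was higher and 4 lower under shPPP2R2A-2. In H1299, 1 was lower with each hairpin and 0 were higher. Over both lists 7 and 9 of 26 genes were called in A549 and 2 and 1 of 26 in H1299, beside 13.7% and 20.5% of all genes in A549 and 2.74% and 3.09% in H1299. The list medians were -0.24 and -0.26 (B subunits) and -0.18 and -0.11 (regulators) in A549, and 0.02 and -0.09 (B subunits) and -0.09 and -0.09 (regulators) in H1299, beside medians of all genes between -0.04 and -0.01. The count of 7 in A549 under shPPP2R2A-1 was 4 with the replicate number as a block and 4 when scaled by total counts, and it stood at 1 without shcon replicate 1, 0 without shcon replicate 3, 4 without shPPP2R2A-1 replicate 2, 2 without shPPP2R2A-1 replicate 3, 4 and 2 when replicate 1 or 2 of shPPP2R2A-2 was left out.

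4 regulators were called by both hairpins with 1 direction, each of them in A549. The comparisons of both hairpins use the same A549 shcon libraries, so they are not independent. What share of all genes both hairpins called in 1 direction was not computed. MASTL, the kinase that starts the inhibition of PP2A-B55 in mitosis, stood at 72.7, 55.9 and 69.8 CPM in A549 shcon, 43.4, 45.8 and 22.4 CPM under shPPP2R2A-1 and 21.4, 22.5 and 25.0 CPM under shPPP2R2A-2. All 6 KD libraries lay below shcon, with log2 fold changes of -0.80 and -1.50 (edgeR adjusted p = 0.048 and 0.0024). In H1299 MASTL stood at 41.1, 40.6 and 48.3 CPM in shcon, 54.8, 50.6 and 61.1 CPM under shPPP2R2A-1 and 52.3, 39.0 and 38.4 CPM under shPPP2R2A-2. Those changes were 0.31 and -0.04 (edgeR adjusted p = 0.33 and 0.95). With shPPP2R2A-2 the difference between the lines was called (log2 -1.54, edgeR adjusted p = 0.026), a call lost with the replicate block (adjusted p = 0.062) and without any 1 of 9 libraries, and under shPPP2R2A-1 it was not called (log2 -1.15, edgeR adjusted p = 0.084).

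KIAA1524 (CIP2A), an inhibitor of PP2A, stood at 77.4, 45.2 and 70.0 CPM in A549 shcon, 41.7, 33.8 and 16.7 CPM under shPPP2R2A-1 and 19.5, 18.3 and 25.9 CPM under shPPP2R2A-2. It was lower with both hairpins (log2 -1.04 and -1.57, edgeR adjusted p = 0.043 and 0.0057), and in H1299 the changes were -0.13 and -0.12 and not called. ANP32A, another PP2A inhibitor, stood at 273, 269 and 248 CPM in A549 shcon, 187, 188 and 132 CPM under shPPP2R2A-1 and 159, 142 and 145 CPM under shPPP2R2A-2. It was lower with both hairpins in A549 (log2 -0.62 and -0.81, edgeR adjusted p = 0.035 and 0.0082) and lower in H1299 under shPPP2R2A-1 (log2 -0.98, edgeR adjusted p = 0.010), with -0.42 and no call for shPPP2R2A-2. The H1299 call was lost without shPPP2R2A-1 replicate 1 (adjusted p = 0.080) or replicate 3 (adjusted p = 0.066).

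PPME1, the methylesterase that removes the methyl group from the PP2A catalytic subunit, was the regulator called higher by both hairpins. It stood at 108, 125 and 112 CPM in A549 shcon, 160, 165 and 204 CPM under shPPP2R2A-1 and 258, 223 and 189 CPM under shPPP2R2A-2. All 6 KD libraries lay above shcon (log2 0.63 and 0.97, edgeR adjusted p = 0.036 and 0.0040). In H1299 the log2 change was 0.67 under shPPP2R2A-1 (edgeR adjusted p = 0.11) and -0.14 under shPPP2R2A-2 (edgeR adjusted p = 0.79), neither called. The 4 calls under shPPP2R2A-1 in A549 rested on few libraries and on the fit. With the replicate block those of MASTL, KIAA1524 and PPME1 were lost (edgeR adjusted p = 0.078, 0.072 and 0.074), and with total counts in place of TMM those of MASTL, KIAA1524 and ANP32A (edgeR adjusted p = 0.067, 0.058 and 0.052). MASTL was still called only without shcon replicate 2 or shPPP2R2A-1 replicate 2, KIAA1524 only without shcon replicate 2, shPPP2R2A-1 replicate 1 or shPPP2R2A-2 replicate 3, PPME1 only without shcon replicate 2, shPPP2R2A-1 replicate 1, or shPPP2R2A-2 replicate 1 or 3, and ANP32A only without shPPP2R2A-1 replicate 1 or 2 or shPPP2R2A-2 replicate 3. The calls under shPPP2R2A-2 in A549 stayed with each library left out and under the other alternatives.

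**Figure D5:**
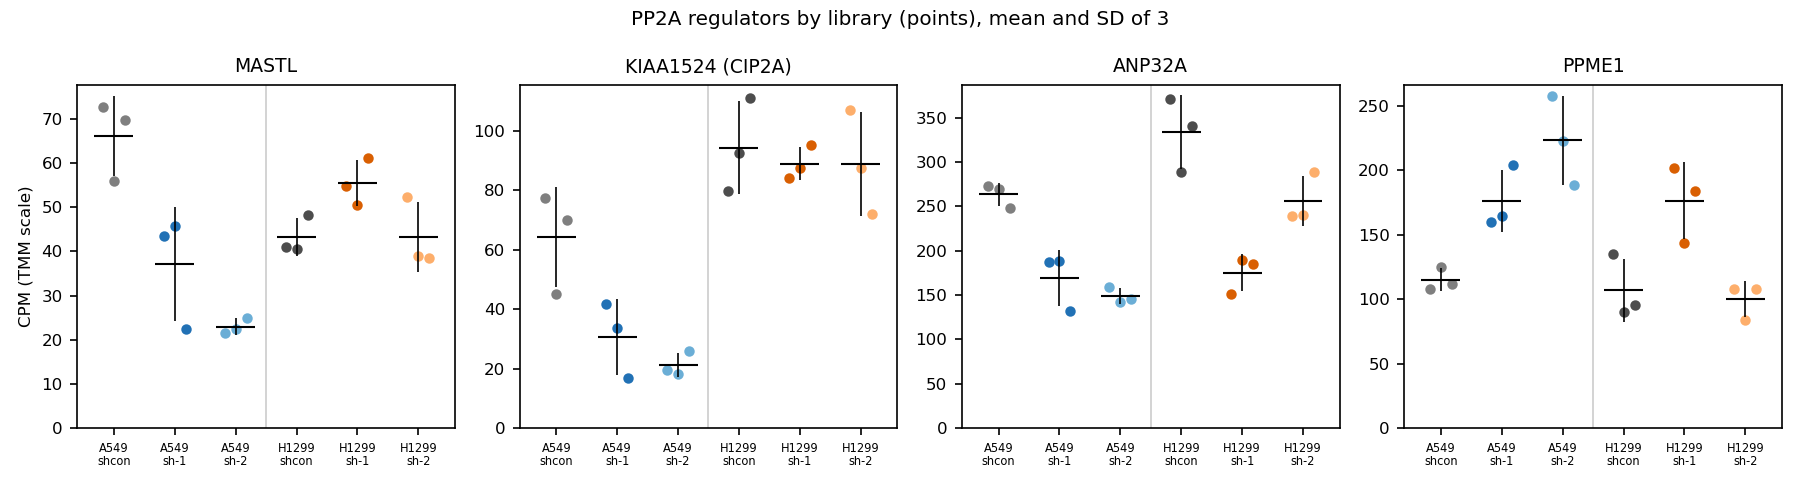
Level of MASTL, KIAA1524 (CIP2A), ANP32A and PPME1 in every library, in CPM on the TMM scale from 0, by line and hairpin (sh-1 and sh-2 are shPPP2R2A-1 and shPPP2R2A-2). Points are libraries, horizontal bars the mean of 3 and vertical bars the SD, and in A549 the KD libraries lie below shcon for the first 3 genes and above it for PPME1.

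The pattern of PPP2R2A over the 18 libraries, after subtracting the mean of each line, was also compared with that of 10890 other well counted genes, as a description with no test. The 5 most alike by Pearson correlation of log2 CPM were SART3 (r = 0.942), MRPL44 (0.942), TOMM20 (0.920), MAGEA6 (0.915) and CPSF7 (0.905), and the 5 most opposed were HHAT (-0.923), TUSC2 (-0.920), PGRMC1 (-0.900), BLCAP (-0.895) and DDAH1 (-0.891). Since 12 of the 18 libraries carry a hairpin against PPP2R2A, such a correlation mostly sets KD against shcon libraries. For TOMM20, a receptor subunit of the mitochondrial import channel, the log2 change was -1.11 and -0.84 in A549 and -0.90 and -0.98 in H1299. For MRPL44, a mitochondrial ribosomal protein, it was -1.89 and -1.05 in A549 and -1.84 and -1.41 in H1299. SART3 changed by -1.66 and -1.16 in A549 and by -1.38 and -0.63 in H1299. In the same order MAGEA6 changed by -1.93, -0.99, -1.75 and -0.79, and CPSF7 by -0.55, -0.58, -0.44 and -0.38. These genes were picked for following PPP2R2A, so their falls are no separate result. By the same measure r was 0.105 for PPP2CB, -0.045 for PPP2R1A, -0.171 for PPP2R1B and -0.320 for PPP2CA. PPP2R2D ran opposite to PPP2R2A (r = -0.578, rank 10225 from the most alike), though its change against shcon was not called.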

How the data were processed

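Per the labels, stranded mRNA libraries were sequenced, and the submitters' processing notes list the aligners STAR 2.7.3a and Bowtie2, the counter HTSeq 0.11.2, Cufflinks 2.2.1, DESeq2, cutadapt 2.5 and FastQC 0.11.8 and the build GRCh37/hg19, without their roles. The authors deposited whole-number counts per gene, which were used for every value. The deposited table also holds a normalized signal per gene (counts divided by a library factor), not used here. Nothing in the labels says that replicates were separate cultures, so p-values measure the spread between libraries, which may be technical. No 2 replicates were copies of each other.

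Counts were scaled by TMM and tested with edgeR 4.0.16 (R 4.3.3, limma 3.58.1) after its filter on low counts by group: 17229 genes in A549, 15972 in H1299 and, for comparisons of the lines, 18827 in 1 fit of the 18 libraries. The Benjamini-Hochberg threshold was 0.05. Intervals are 95% intervals of the fit, and floors cover counting error only. The fit was tested on simulated data, with changes of known size given to 50 genes per size under shPPP2R2A-1. Against shcon it called 3 of 50 at log2 0.5 in each line, and 23 (A549) and 26 (H1299) at log2 1. At log2 2 it called 49 of 50 in each line. The interaction test called 1 of 50 at log2 0.5, 6 at log2 1 and 40 at log2 2. Changes of log2 0.5 were thus mostly missed in the simulation. Its changed genes were few and well counted, so these rates need not hold for the data, nor for PPP2R2C in H1299. DESeq2 1.42.0, other scalings, no filter, a replicate block, 1 fit for both lines and each library left out were the alternatives. Correlations used log2 CPM with a prior count of 2 and genes with a mean of at least 100 counts in each line. Exon lengths and overlaps come from GENCODE v29 (GRCh38) by Ensembl ID, and promoters from RefSeq GRCh38.p14, whose table was used for 6 of the 8 members. By 100-base words of annotated transcripts, 6.46% of PPP2R1A and 5.92% of PPP2CA words also occur in another annotated gene, and at most 0.727% for the other members. The genes that share them with PPP2R1A and PPP2CA had 0 counts. Python 3.11.15 with pandas, numpy and matplotlib computed levels per kilobase and drew the plots.

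All 8 members are named. 1 marker gene of the lines is not reported here. Of the 2 lists, genes that both hairpins moved 1 way past the threshold in a line are named, at most 4 per list and line, and of genes like PPP2R2A the 5 highest and 5 lowest correlations. The members and lists were chosen with earlier results of these data known.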

Additional observations from a re-analysis of the deposited data

Results flagged for a closer look

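1 difference in response between the lines passed its test among the members and the 26 other PP2A genes, over both hairpins. Among all 18827 genes, 1.09% passed for shPPP2R2A-1 and 0.643% for shPPP2R2A-2. The response of MASTL to shPPP2R2A-2 was lower in A549 than in H1299 by a log2 of -1.54 (95% interval -2.19 to -0.89, adjusted p = 0.026 from edgeR's interaction test over 18827 genes), with all 3 A549 KD libraries below all 3 shcon libraries and with the H1299 KD libraries on both sides of theirs. DESeq2 gave -1.45 (adjusted p = 0.0014). The call was lost with the replicate block (adjusted p = 0.062) and without any 1 of 9 libraries, namely A549 shcon replicate 1 or 3, A549 shPPP2R2A-2 replicate 1, 2 or 3, H1299 shcon replicate 1, 2 or 3, or H1299 shPPP2R2A-2 replicate 1, where the value lay between -1.61 and -1.34 and the adjusted p between 0.055 and 0.11.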

How the results depend on the processing

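The fall of PPP2R2A kept its direction and its call under every alternative, from -2.99 to -2.94 (A549 shPPP2R2A-1), -2.50 to -2.47 (A549 shPPP2R2A-2), -3.53 to -3.47 (H1299 shPPP2R2A-1) and -2.46 to -2.33 (H1299 shPPP2R2A-2), and with 1 library left out from -3.18 to -2.84, -2.66 to -2.32, -3.72 to -3.36 and -2.55 to -2.29. The count of other members called against shcon moved from 0 to 1 in H1299 with shPPP2R2A-1 under DESeq2, no filter and 1 fit of all libraries, and with shPPP2R2A-2 under the last of these. The gene was PPP2R2C each time. With 1 library left out the count was 0 to 1 in H1299 with shPPP2R2A-1. The count of members whose response differs between the lines moved from 0 to 1 for each hairpin under DESeq2 and under no filter. The count of other PP2A genes called moved from 7 to 4 in A549 with shPPP2R2A-1 under total counts and under the replicate block, and from 1 in H1299 with shPPP2R2A-2 to 2 under DESeq2 or no filter and 0 in 1 fit. With 1 library left out these counts were 0 to 6 (A549 shPPP2R2A-1), 0 to 3 (H1299 shPPP2R2A-1, from 2) and 0 to 1 (H1299 shPPP2R2A-2). In H1299 with shPPP2R2A-1, 1 remained without shcon replicate 2 or 3 and 0 without shPPP2R2A-1 replicate 1 or 3. With shPPP2R2A-2, 1 remained without shPPP2R2A-2 replicate 3 and 0 without each of the other 8 libraries of H1299. The causes of these moves were not tested.

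Same-numbered libraries deviated together in part: of 18 pairs, 10 had deviations correlated above 0.1 (range -0.49 to 0.43), and a library matched its own number best in 9. In H1299 all 3 pairs of shcon with shPPP2R2A-1 (0.16 to 0.28) and of shPPP2R2A-1 with shPPP2R2A-2 (0.21 to 0.40) were above 0.1, but those of shcon with shPPP2R2A-2 ran from -0.49 to 0.43, and in A549 no comparison had all 3 above 0.1. With the replicate block PPP2R2A stood at -2.96, -2.47, -3.53 and -2.45 and remained called, 2 of the members were called between the lines in place of 3 (PPP2R1A, log2 0.65, adjusted p = 0.071), and no other member's call changed, in H1299 included. The block was set within each line, so its comparison of the shcon levels of the lines is at replicate 1 and does not average the replicates. DESeq2 called 3680 genes in A549 with shPPP2R2A-1 (edgeR 2357), 1461 and 1423 in H1299 (edgeR 437 and 493), and 728 and 620 between the lines' responses (edgeR 206 and 121). With no filter the counts were 3604, 1381, 1169, 904 and 811. Total counts in place of TMM moved the median of all genes in H1299 with shPPP2R2A-2 from -0.01 to 0.10, and the calls from 219 higher and 274 lower to 355 and 195. At 3 libraries per group an unpassed test does not show an equal level, and PPP2R2B and, in H1299, PPP2R2C are limited by depth.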

Other observations

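Outside the rule for named genes, and chosen after their values were seen, 2 B56 genes, whose products form another family of PP2A B subunits, differed between the hairpins in both lines. Of the 11 further B subunits, 1 was higher and 1 lower under shPPP2R2A-2 than under shPPP2R2A-1 in A549, beside 17.5% of all genes called. In H1299, 1 was higher and 2 were lower, beside 16.2% of all genes. What share of all genes differed between the hairpins in both lines was not computed. PPP2R5C was lower under shPPP2R2A-1 than with shcon in A549 (log2 -0.69, edgeR adjusted p = 0.030) and in H1299 (log2 -0.82, edgeR adjusted p = 0.011), and higher under shPPP2R2A-2 than under shPPP2R2A-1 in each line (log2 0.62 and 0.88, edgeR adjusted p = 0.038 and 0.0023). PPP2R5A was lower under shPPP2R2A-2 than under shPPP2R2A-1 in A549 (log2 -0.57, edgeR adjusted p = 0.030) and in H1299 (log2 -0.65, edgeR adjusted p = 0.014). Against shcon, PPP2R5A under shPPP2R2A-2 was lower in A549 (log2 -0.87, edgeR adjusted p = 0.0043) and not called in H1299 (log2 -0.40, edgeR adjusted p = 0.17). Under shPPP2R2A-1 it was called in neither line. For PPP2R5C both comparisons of a line share the shPPP2R2A-1 libraries, and for PPP2R5A they share those of shPPP2R2A-2.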
